A study of Mus musculus with 12 samples.

Results

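The insulin-like growth factor (IGF) genes described here are 10 genes of the mouse: the ligands Igf1 and Igf2, the receptors Igf1r and Igf2r, and the binding proteins Igfbp2, Igfbp3, Igfbp4, Igfbp5, Igfbp6 and Igfbp7. They were chosen by name from the 55487 genes listed for every library, and all 10 passed the filter on low values in every comparison. RNA sequencing was performed on skin wounds made by punch biopsy on the back of male C57BL/6JNarl mice aged 6 weeks. All wounds received Pluronic F127 gel once daily. In the sham wounds the gel was given alone, and in the CAP-treated wounds it carried 10 µM capsaicin (CAP), the pungent compound of chili peppers and an agonist of the ion channel TRPV1. Wounds were taken with the surrounding tissue at day 3 or day 6, which gave 4 groups of 3 libraries. Each mouse carried a pair of wounds and the sources used here do not say which libraries share a mouse, so the p-values measure the spread between libraries, which may be partly technical. No unwounded skin was analysed here.

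The IGF ligands are secreted peptides that drive growth and survival of many cell types, fibroblasts, keratinocytes and muscle precursors among them. Both ligands signal through the tyrosine kinase Igf1r, whereas Igf2r, which also carries lysosomal enzymes, takes up Igf2 for degradation. The binding proteins hold the ligands in the extracellular space, where proteases release them, and Igfbp7, a relative with low affinity for IGF, is known for its expression in blood vessels.

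Levels are given in TPM (transcript abundance per length), a unit scaled to transcript length and to a fixed library total, so levels can be compared between genes of a library. Between 18533 and 19325 genes reached 0.3 TPM in a library. Markers of keratinocytes, fibroblasts, leukocytes, endothelium and muscle were present in all 12 libraries, while the summed level of 6 hair follicle markers stayed between 0.165 and 49.1 TPM. Library 2 of the CAP-treated wounds at day 6 stood apart. It had the highest summed keratinocyte markers of all 12 libraries (97052 TPM) and the lowest summed markers of macrophages (822 TPM), neutrophils (278 TPM) and endothelial cells (58.0 TPM). Leaving it out was chosen after the data were seen, and the main values that it moved are also given without it. In whole tissue, fewer cells of a type and less RNA per cell cannot be told apart.

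The binding proteins other than Igfbp2 had the highest group means of the members. Averaged by group, Igfbp7 stood between 188 and 422 TPM, Igfbp6 between 125 and 221 TPM, Igfbp3 between 112 and 232 TPM, Igfbp4 between 65.5 and 154 TPM and Igfbp5 between 45.2 and 106 TPM. Igfbp2 was the exception, at 2.37 to 13.5 TPM in the 12 libraries. Igf2r was at 21.9 to 58.8 TPM and Igf1 at 15.0 to 38.3 TPM. At day 6 Igf2r was close to Igfbp5 in the sham libraries and CAP replicate 3, and above it in sham replicate 2 and CAP replicate 3. In CAP replicates 1 and 2 of day 6 it was well below Igfbp5 (29.1 against 48.8 TPM and 21.9 against 105 TPM). Igf2r was above Igf1 in 11 of the 12 libraries, the exception being CAP day 6 replicate 2. Igf1r (7.71 to 13.2 TPM) and Igf2 (2.49 to 14.4 TPM) had the lowest levels along with Igfbp2, and the ranges of these 3 genes overlapped. The order of the abundant binding proteins was not fixed, since Igfbp6 and Igfbp7 overlapped in the sham wounds at day 3 and Igfbp7 exceeded Igfbp6 in every sham library at day 6.

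**Figure D1:**
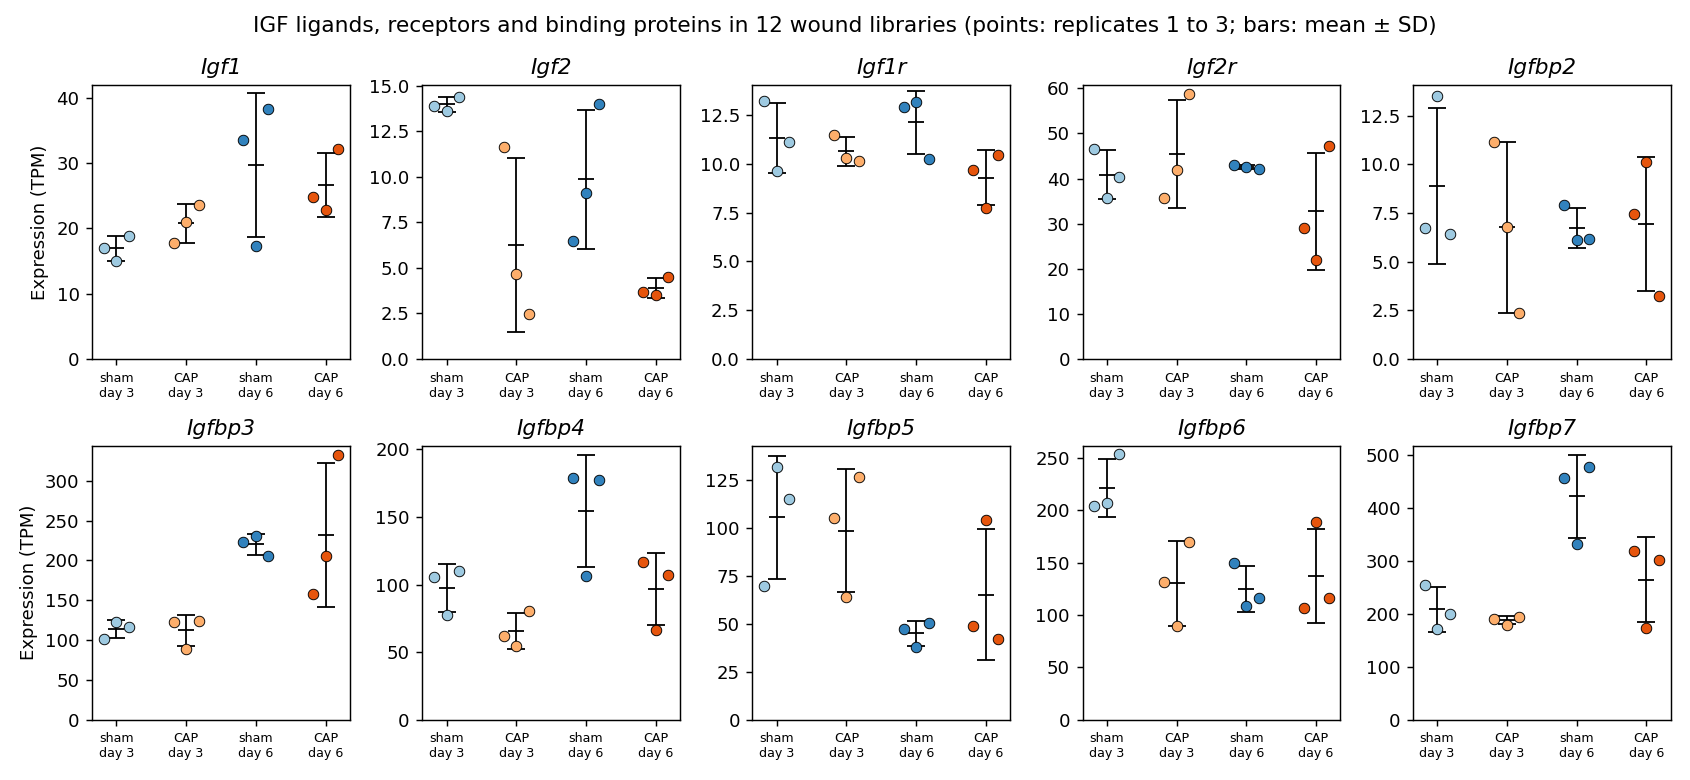
Level of each IGF gene in TPM (linear axis from 0, scaled per gene) in the 12 libraries, with 1 point per library and bars for the mean ± SD of each group of 3. In the sham wounds Igfbp3 and Igfbp7 sit higher at day 6 than at day 3 and Igfbp6 sits lower, and the Igf2 points of the CAP groups lie below those of the sham group on each day.

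The comparison of sham wounds at day 6 with those at day 3 asked how the IGF genes moved as wounds healed under gel alone. Igfbp3 and Igfbp7 rose and Igfbp6 fell. These were 3 of the 10 members at an adjusted p under 0.05 (limma, Benjamini-Hochberg over 18368 genes), against 2.29% of all genes tested. In each direction 1.14% of all genes passed. The study selected genes at a p under 0.05 with a change of at least 2-fold, from DEseq or DEseq2. In this report the threshold of the study means the same cutoffs applied to unadjusted limma p-values, so the genes passing can differ. Here it was passed by Igfbp7 and Igfbp5 and by 3.75% of all genes (2.13% higher, 1.61% lower). At an unadjusted p under 0.05 there were 6 members, against 16.0% of all genes. Over the 10 members the median log2 difference was 0.08, and over all genes it was 0.00.

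Igfbp3 is the main carrier of IGF in the circulation. Its level in the sham wounds was 101, 123 and 117 TPM at day 3 and 223, 231 and 206 TPM at day 6. Every day 6 library was above every day 3 library, and the spread within each day was small beside the gap. The mean went from 114 ± 11.2 to 220 ± 13.1 TPM (SD, n = 3 each), a log2 difference of 0.96 (standard error 0.10, limma adjusted p = 0.0132), which is 1.94-fold.

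Igfbp7 was the most abundant member in every sham library of day 6, though Igfbp3 was above it in CAP replicates 2 and 3 of that day. In the sham wounds it was at 255, 171 and 200 TPM at day 3 and at 458, 332 and 477 TPM at day 6. The groups did not overlap, although the libraries of each day differed more among themselves than for Igfbp3. The mean rose from 209 ± 42.6 to 422 ± 79.1 TPM (SD, n = 3 each), with a log2 difference of 1.02 (standard error 0.19, limma adjusted p = 0.0449). The gene overlaps Polr2b, which lies on the opposite strand and varied only from 37.0 to 44.2 TPM over the 12 libraries.

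Igfbp6, which prefers Igf2 over Igf1, moved in the opposite direction. The sham libraries held 204, 206 and 253 TPM at day 3 and 150, 108 and 116 TPM at day 6. All 3 day 6 libraries were below all 3 day 3 libraries. The mean fell from 221 ± 27.7 to 125 ± 22.0 TPM (SD, n = 3 each), a log2 difference of -0.83 (standard error 0.15, limma adjusted p = 0.0394). Of these 3 calls none held in a joint fit of all 12 libraries, where the adjusted p was 0.166 for Igfbp3, 0.235 for Igfbp6 and 0.159 for Igfbp7.

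Igfbp5, a binding protein held in the extracellular matrix, had the largest difference in size but missed the adjusted threshold. Its sham values were 70.0, 132 and 115 TPM at day 3 and 47.2, 38.0 and 50.5 TPM at day 6. The groups did not overlap, and most of the spread lay at day 3. The log2 difference was -1.18 (standard error 0.24, limma adjusted p = 0.0544). The adjusted p was 0.0132 without sham day 3 replicate 1 and 0.139 without sham day 3 replicate 2. With 1 library left out it ranged from 0.0132 to 0.181, and under the other settings from 0.0467 to 0.230. With Igfbp5, 4 of 10 members had groups that did not overlap, against 21.4% of all genes.

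The other 6 members did not pass in the sham wounds. Igf1 was at 17.0, 15.0 and 18.9 TPM at day 3 and at 33.5, 17.3 and 38.3 TPM at day 6. Sham day 6 replicate 2 lay within the day 3 range and the other two were well above it. The log2 difference of Igf1 was 0.73 (standard error 0.28, limma adjusted p = 0.263), and without that replicate it was 1.08 (adjusted p = 0.0347). Igfbp4, a binding protein that inhibits IGF action until it is cleaved, differed by 0.63 on the log2 scale (adjusted p = 0.232). Sham day 6 replicate 2 was again the lowest of its group for Igfbp4, at 106 TPM against 179 and 177 TPM. The receptors were nearly level, with log2 differences of 0.10 for Igf1r (95% interval -0.28 to 0.48) and 0.07 for Igf2r (-0.19 to 0.32). Igf2 differed by -0.57 (adjusted p = 0.341) and Igfbp2 by -0.32 (adjusted p = 0.680).

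Markers of blood vessels moved with Igfbp3 and Igfbp7 over time in the sham wounds. All 5 endothelial markers (Pecam1, Cdh5, Kdr, Tie1 and Emcn) rose from day 3 to day 6 in the sham wounds, and their sum went from a range of 77.7 to 112 TPM to one of 228 to 311 TPM. Of the 5 markers of pericytes and smooth muscle, Rgs5, Pdgfrb and Acta2 rose, Myh11 did not pass (adjusted p = 0.116), and Des lay the other way without overlap (359 TPM at day 3 and 221 TPM at day 6, adjusted p = 0.0719). The list sum ranged from 474 to 553 TPM at day 3 and from 546 to 689 TPM at day 6. None of these markers was listed at 0. Over time under CAP, the endothelial markers had a median log2 difference of 0.36, with 0 at an unadjusted p under 0.05. Without CAP day 6 replicate 2 the median was 0.85, with 5 at that level. Igfbp3 differed by 0.99 and Igfbp7 by 0.44 there in all libraries. Of 8 dermal fibroblast markers, 8 had positive differences over time in sham (median 0.27) and 7 under CAP (median 0.55). The part of these lists in the differences of Igfbp3 and Igfbp7 was not tested. Of the 5 markers of regenerating muscle in the sham wounds, Myog and Myod1 fell as Igfbp6 did, Myh3 and Mymk were lower without passing, and Myh8 was at 9.77 TPM at day 3 and 12.2 TPM at day 6. The sum went from 96.5 to 108 TPM at day 3 to 11.7 to 45.7 TPM at day 6. Over time in the CAP-treated wounds these 5 markers were also lower (median log2 difference -2.48, none at an adjusted p under 0.05), whereas Igfbp6 differed by 0.08. The part of these markers was not tested either. In the sham wounds the 4 hemoglobin genes also rose, from a summed 511 to 748 TPM to 2098 to 5579 TPM.

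The 3 called genes lie on different chromosomes. In the mouse build GRCm38, Igfbp3 spans chr11:7206086-7213923 on the minus strand, Igfbp6 chr15:102144362-102149511 on the plus strand and Igfbp7 chr5:77349240-77408041 on the minus strand. The 250 bases before the RefSeq start of each gene (GRCm38.p6) are shown because these are the members that passed the test, at chr11:7213924-7214173, chr15:102143936-102144185 and chr5:77408046-77408295. They are written 5′ to 3′ on the strand of the gene, and capitals mark matches on either strand to the motif TATAAA of core promoters, to GGGCGG, the motif of Sp1, or to TGANTCA, the motif of AP-1.
Igfbp3: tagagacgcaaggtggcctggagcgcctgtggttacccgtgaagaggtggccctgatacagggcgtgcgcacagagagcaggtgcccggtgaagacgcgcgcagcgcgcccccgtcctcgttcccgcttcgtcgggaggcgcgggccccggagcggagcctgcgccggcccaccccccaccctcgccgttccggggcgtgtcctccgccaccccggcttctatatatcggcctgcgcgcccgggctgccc
Igfbp6: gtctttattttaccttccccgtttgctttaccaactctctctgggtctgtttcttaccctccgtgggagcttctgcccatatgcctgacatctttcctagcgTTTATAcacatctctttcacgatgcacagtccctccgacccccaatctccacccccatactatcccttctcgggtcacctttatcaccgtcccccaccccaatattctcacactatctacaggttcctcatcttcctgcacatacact
Igfbp7: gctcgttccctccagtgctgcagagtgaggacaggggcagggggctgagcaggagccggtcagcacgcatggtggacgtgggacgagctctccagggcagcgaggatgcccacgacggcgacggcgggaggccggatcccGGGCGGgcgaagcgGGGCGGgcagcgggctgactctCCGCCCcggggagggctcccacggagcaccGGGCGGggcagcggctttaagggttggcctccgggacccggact
The windows of Igfbp3 and Igfbp7 were GC-rich, with 73.2% and 74.0% G or C and 32 and 26 CpG pairs. The window of Igfbp6 had 49.6% G or C and 7 CpG pairs. Among the members not called, the share was 77.6% for Igf1r, 69.2% for Igf2r and Igfbp4, 58.8% for Igfbp5 and 52.8% for Igf1. It was 67.2% and 56.4% in the windows of Igfbp2 and 47.6% to 68.8% in those of Igf2. No share over all promoter windows is given for comparison. Igfbp7 held 4 matches to GGGCGG, a motif found in 32.7% of 32851 promoter windows of the same length. Igfbp6 held 1 match to TATAAA, found in 12.4% of windows, and it reads on the strand opposite to the gene. None of the windows shown held TGANTCA, which is present in 6.7% of all windows, and the Igfbp3 window held none of the 3 motifs. A match describes the letters only and is not evidence of a bound site.

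In the CAP-treated wounds the same comparison of day 6 with day 3 called no member at an adjusted p under 0.05 (limma, 0 of 10, against 0.00549% of 18202 genes). At an unadjusted p under 0.05 there was 1 member, Igfbp3, against 11.6% of all genes, and no member passed the threshold of the study, against 2.79%. Igfbp3 was at 123, 89.3 and 124 TPM at day 3 and at 158, 206 and 332 TPM at day 6. The groups did not overlap, as for 17.7% of all genes, but the day 6 libraries were spread widely. Without CAP day 6 replicate 2, there were 5 members at an unadjusted p under 0.05 (8.86% of genes), of which Igfbp3 (1.04) and Igfbp5 (-1.06) passed the threshold of the study (382 of 18220 genes). The log2 difference of Igfbp3 in all libraries, 0.99 (standard error 0.28, limma adjusted p = 0.326), was close in size to that in the sham wounds, and the difference between these changes was 0.04 (95% interval -0.67 to 0.75, adjusted p = 0.970).

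Igfbp6 and Igfbp7 had smaller differences over time under CAP. Igfbp6 was at 131, 89.4 and 170 TPM at day 3 and at 107, 188 and 116 TPM at day 6. The groups overlapped, and the log2 difference was 0.08 (95% interval -0.63 to 0.78), or -0.18 without CAP day 6 replicate 2. Set against the fall in the sham wounds, the difference between these changes was 0.91 on the log2 scale (standard error 0.36, unadjusted p = 0.0283, limma adjusted p = 0.428), and 0.66 without CAP day 6 replicate 2 (unadjusted p = 0.0664). Igfbp7 was at 191, 180 and 194 TPM at day 3 and at 319, 173 and 303 TPM at day 6. The lowest value was that of CAP day 6 replicate 2, the library that stood apart, and the other two were above every day 3 library. The log2 difference was 0.44 (adjusted p = 0.513), and without that library it was 0.72 (adjusted p = 0.329). The change of Igfbp7 differed from that in the sham wounds by -0.58 (95% interval -1.30 to 0.15, adjusted p = 0.496), or by -0.29 without that library. No member passed this test of the difference at an adjusted p under 0.05 (limma, 0 of 10 and 0% of 20267 genes), and Igfbp6 was the 1 member at an unadjusted p under 0.05, against 11.3% of genes. None passed the threshold of the study on this difference, against 4.90%.

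**Figure D2:**
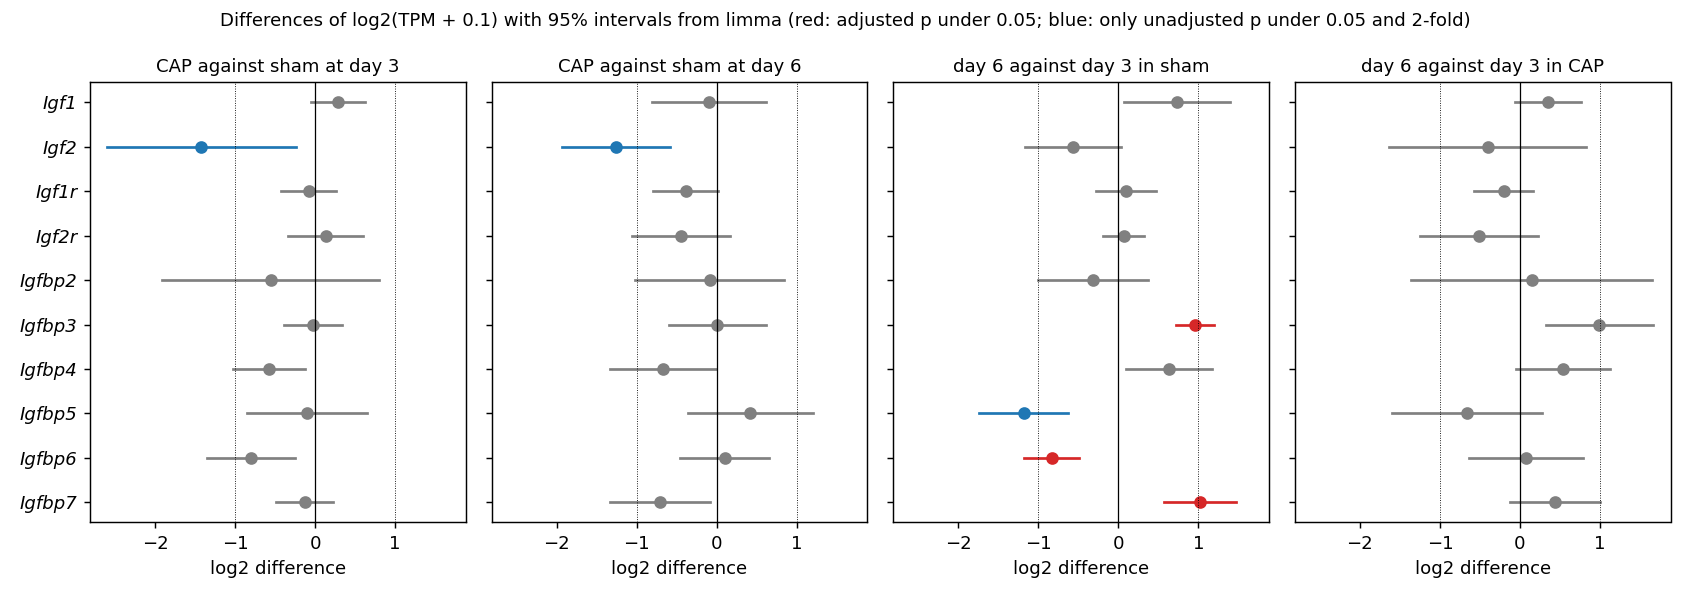
Log2 difference of each IGF gene (points) with its 95% interval (bars) in 4 comparisons, CAP against sham on each day and day 6 against day 3 in each treatment, from limma on log2(TPM + 0.1). Red marks an adjusted p under 0.05 (Igfbp3, Igfbp6 and Igfbp7 over time in the sham wounds), blue marks genes past the threshold of the study alone (Igf2 for CAP against sham on both days, Igfbp5 over time in the sham wounds), and dotted lines stand at a 2-fold difference.

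The comparison of CAP-treated with sham wounds at day 3 asked how CAP affected the wounds early. No member passed at an adjusted p under 0.05 (limma, 0 of 10, against 0.0164% of 18330 genes). At an unadjusted p under 0.05 there were 3 members (Igf2, Igfbp4 and Igfbp6), all lower under CAP, against 6.60% of all genes. Igf2 alone passed the threshold of the study, against 1.58% of genes (1.16% lower). The median log2 difference was -0.12 over the members and -0.05 over all genes.

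Igf2, the ligand of fetal growth that is also made by differentiating muscle cells, was at 13.9, 13.6 and 14.4 TPM in the sham group of day 3 and at 11.6, 4.67 and 2.49 TPM under CAP. The sham libraries were nearly equal and all CAP-treated libraries were below them, by amounts that differed from library to library. The log2 difference was -1.42 (standard error 0.50, 95% interval -2.60 to -0.24, unadjusted p = 0.0248 and adjusted p = 0.708 from limma). Igf2 fell short of the threshold of the study, on limma p-values, in 5 of 6 fits that left out 1 library. Without sham replicates 1, 2 or 3 or CAP replicate 2 the difference was -1.44 to -1.35 with an unadjusted p of 0.0532 to 0.0657. Without CAP replicate 3 it was -0.91, and Igfbp6 (-1.02) was then the 1 member past that threshold. It passed without CAP replicate 1 (-2.001, adjusted p = 0.0747).

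Igfbp6 at day 3 had sham values of 204, 206 and 253 TPM, and values under CAP of 131, 89.4 and 170 TPM. As for Igf2, the groups did not overlap, which held for 11.6% of all genes. The log2 difference of Igfbp6 was -0.81 (standard error 0.23, limma adjusted p = 0.585). Igfbp4 differed by -0.58 (standard error 0.19, adjusted p = 0.688), and its groups overlapped, with 106, 77.4 and 110 TPM against 61.6, 54.6 and 80.3 TPM. Of 8 markers of dermal fibroblasts, all had negative differences at day 3 (median -0.51), 4 at an unadjusted p under 0.05 and none at an adjusted p under 0.05. Their sum was 10609 to 15940 TPM under CAP and 15148 to 23406 TPM in sham, and none was listed at 0 in all 12 libraries. Over time in the sham wounds all 8 had positive differences (median 0.27), whereas Igfbp6 fell and Igfbp4 differed by 0.63. At day 3 all markers of mature and regenerating muscle and of Schwann cells were negative under CAP too (medians -0.64, -1.44 and -0.50). All tested adipocyte, hair follicle and hemoglobin markers were positive. The part of these markers in the values of Igfbp6 and Igfbp4 was not tested. Igfbp3 was the nearest to 0, with a log2 difference of -0.03 (95% interval -0.39 to 0.33). For Igf1 the log2 difference was 0.29 (95% interval -0.06 to 0.63), and the other 5 members lay between -0.56 and 0.13.

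At day 6 the comparison of CAP-treated with sham wounds again called no member at an adjusted p under 0.05 (limma, 0 of 10 and 0% of 18323 genes). At an unadjusted p under 0.05 there were 3 members (Igf2, Igfbp4 and Igfbp7), all lower under CAP, but so many genes reached this level (19.2%) that the share is near the background. Igf2 passed the threshold of the study, against 3.80% of genes (2.34% lower). The median log2 difference over all genes was -0.12, and over the members it was -0.24. Without CAP day 6 replicate 2, Igf2 was the 1 member at an unadjusted p under 0.05, against 12.5% of genes. All 6 keratinocyte markers had positive differences under CAP (median 1.02, 3 past the threshold of the study, none at an adjusted p under 0.05). Their sum was 45771 to 97052 TPM in the CAP-treated libraries and 26031 to 29644 TPM in the sham libraries, so all 3 CAP-treated libraries were higher, and their part in the values of the members was not tested. The sham libraries of day 6 are the same ones that entered the comparison over time.

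Igf2 at day 6 had sham values of 6.48, 9.10 and 14.0 TPM, and values under CAP of 3.67, 3.52 and 4.50 TPM. The CAP-treated libraries were close together and all below the sham libraries, which were spread over a wider range. The log2 difference was -1.25 (standard error 0.29, 95% interval -1.93 to -0.58, unadjusted p = 0.00321 and adjusted p = 0.205 from limma). It was -1.14 after median-ratio scaling, which takes out the shift of all genes, -0.97 without sham day 6 replicate 3, and -1.19 without CAP day 6 replicate 2. The difference of the CAP effect on Igf2 between the days was 0.17, with a wide 95% interval of -1.21 to 1.55.

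Markers of regenerating muscle moved with Igf2. Their sum (Myh3, Myh8, Myog, Myod1 and Mymk) was 96.5, 104 and 108 TPM in sham libraries 1 to 3 of day 3 and 87.7, 26.9 and 13.9 TPM under CAP, in the same order as Igf2 within the CAP-treated group. At day 6 the sum was 11.7, 30.8 and 45.7 TPM in the sham libraries and 4.74, 8.42 and 12.5 TPM under CAP. On each day 3 of the 5 markers were lower under CAP at the threshold of the study, and none passed at an adjusted p under 0.05. None was listed at 0 in all 12 libraries. Their part in the values of Igf2 was not tested. The falling order over CAP-treated libraries 1 to 3 of day 3 was not particular to regenerating muscle. The summed markers of mature skeletal muscle were at 4896, 2699 and 1813 TPM there. Sums for keratinocytes, endothelium, and pericytes with smooth muscle fell in that order too, as did the monocyte markers Ly6c2 and Ccr2. Sums for macrophages, adipocytes and hemoglobin rose over the same libraries, and the other marker sums did neither.

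**Figure D3:**
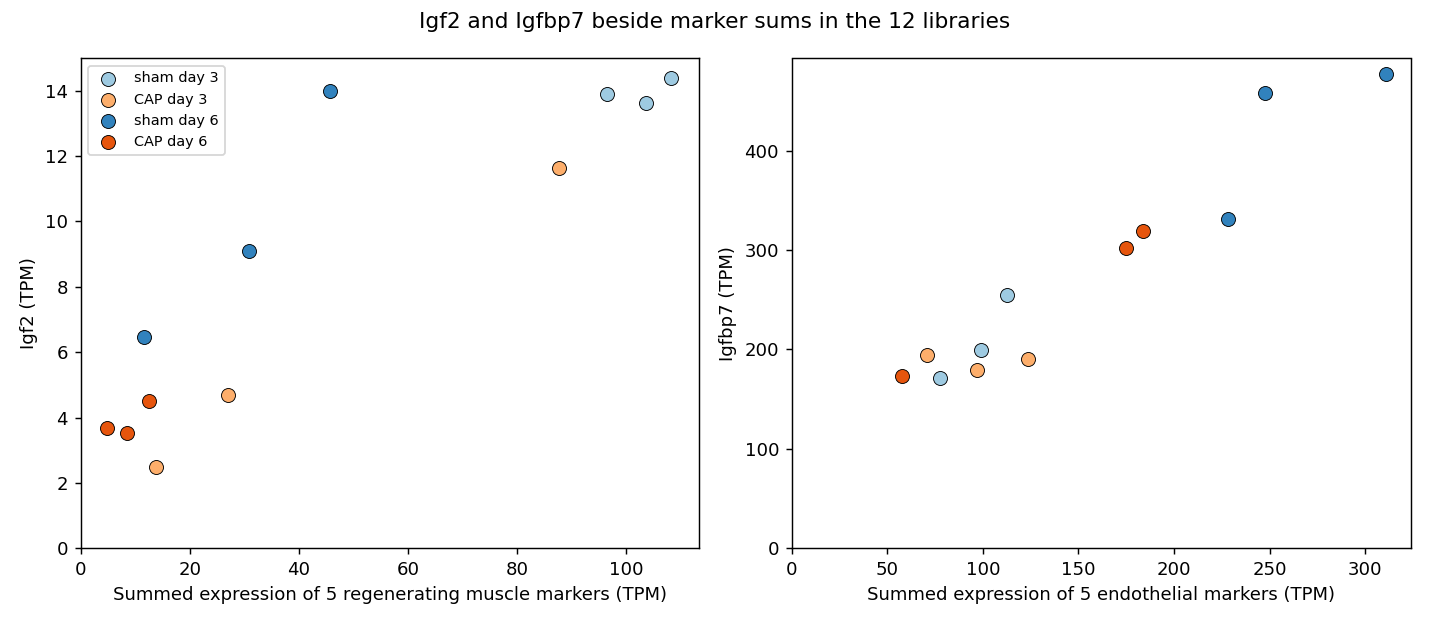
Left, level of Igf2 (TPM) against the summed level of 5 markers of regenerating muscle (TPM). Right, level of Igfbp7 (TPM) against the summed level of 5 endothelial markers (TPM). Each point is 1 of the 12 libraries, coloured by group; the sham libraries of day 3 lie together at the upper right of the muscle plot, at 96.5 to 108 TPM of markers and 13.6 to 14.4 TPM of Igf2, and the sham libraries of day 6 are highest on both axes of the endothelial plot.

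Igfbp7 at day 6 had sham values of 458, 332 and 477 TPM, and values under CAP of 319, 173 and 303 TPM. The groups did not overlap, as for 26.0% of all genes, though CAP replicate 1 came close to sham replicate 2. The log2 difference was -0.71 (standard error 0.26, limma adjusted p = 0.235), and without CAP day 6 replicate 2 it was -0.42. All 5 endothelial markers were lower in the CAP-treated libraries without overlap, at a summed 58.0 to 184 TPM against 228 to 311 TPM, and 3 of them passed the threshold of the study, or 0 without CAP day 6 replicate 2. The summed markers of pericytes and smooth muscle did not overlap either, at 229 to 410 TPM against 546 to 689 TPM. Their median log2 difference was -0.84, or -0.42 without CAP day 6 replicate 2. All markers of macrophages, neutrophils, muscle, Schwann cells and hemoglobin had negative differences too, whereas those of keratinocytes and 4 of 5 of adipocytes were positive. No marker passed at an adjusted p under 0.05, and the part of these lists in the value of Igfbp7 was not tested. Igfbp3 did not move with the endothelial markers here, with a log2 difference of 0.01 between CAP-treated and sham wounds at day 6. Igfbp4 differed by -0.68 (standard error 0.28, adjusted p = 0.254), with overlapping groups, and by -0.43 without CAP day 6 replicate 2 (adjusted p = 0.4998).

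The remaining members did not pass at day 6. The receptors had log2 differences of -0.38 for Igf1r (standard error 0.17, limma adjusted p = 0.276) and -0.45 for Igf2r (standard error 0.26, adjusted p = 0.3603). Igf2r was at 29.1, 21.9 and 47.1 TPM under CAP against 43.0, 42.5 and 42.1 TPM in the sham wounds. CAP replicate 3 was thus above the sham libraries and the other two below, and without it the log2 difference was -0.75 (adjusted p = 0.0388), in a fit that called 1430 of all genes. Without CAP replicate 2, the library that stood apart, it was -0.20 (adjusted p = 0.710). Igf2r overlaps the antisense transcript Airn, which was at 1.74 to 5.75 TPM. Igf1 (-0.09), Igfbp2 (-0.09), Igfbp3 (0.01), Igfbp6 (0.10) and Igfbp5 (0.42) had 95% intervals that included 0. Without CAP replicate 2 the differences were 0.0057 for Igf1, -0.43 for Igfbp2, 0.058 for Igfbp3, -0.15 for Igfbp6 and -0.26 for Igf1r, none at an unadjusted p under 0.05. Igfbp5 was at 48.8, 105 and 42.4 TPM under CAP, with the high value in the library that stood apart, and without that library its log2 difference was 0.018.

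The balance of the ligands differed between groups. Between CAP-treated and sham wounds, Igf2 had log2 differences larger in size than those of Igf1. They were -1.42 against 0.29 at day 3 and -1.25 against -0.09 at day 6. From day 3 to day 6, Igf1 moved by 0.73 and Igf2 by -0.57 under gel alone. Under CAP these changes over time were 0.35 for Igf1 and -0.40 for Igf2. Igf2 made up 45.3 ± 2.19% of the summed ligand TPM in the sham wounds of day 3 and 25.8 ± 9.16% at day 6 (SD, n = 3 each). In the CAP-treated wounds it made up 22.5 ± 15.5% at day 3 and 12.8 ± 0.526% at day 6 (SD, n = 3 each). Every CAP-treated library was below every sham library of its day, and the CAP-treated libraries of day 6 were the most uniform, at 12.3 to 13.3%. The ratio of Igf2r to Igf1r varied less, with group means between 3.46 and 4.33.

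The summed level of the 6 binding proteins at day 3 was 756 ± 40.7 TPM for sham and 602 ± 109 TPM for CAP, and 973 ± 132 and 803 ± 87.0 TPM at day 6 (SD, n = 3 each). The sums of CAP-treated and sham wounds did not overlap at day 3 and overlapped at day 6. The composition differed more than the total. In the sham wounds Igfbp6 and Igfbp7 held like shares at day 3 (29.2 ± 2.13% and 27.6 ± 5.82%), whereas at day 6 Igfbp7 held 43.2 ± 2.91% and Igfbp6 12.8 ± 1.43% (SD, n = 3 each). Igfbp5 held 14.0 ± 4.42% at day 3 and 4.65 ± 0.229% at day 6 in the same wounds. Under CAP at day 6 the leading shares were 32.9 ± 9.55% for Igfbp7 and 28.4 ± 7.98% for Igfbp3. Both ligands together came to only 3.78 to 4.58% of the binding protein sum by group. These sums and shares are given as descriptions with no test.

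**Figure D4:**
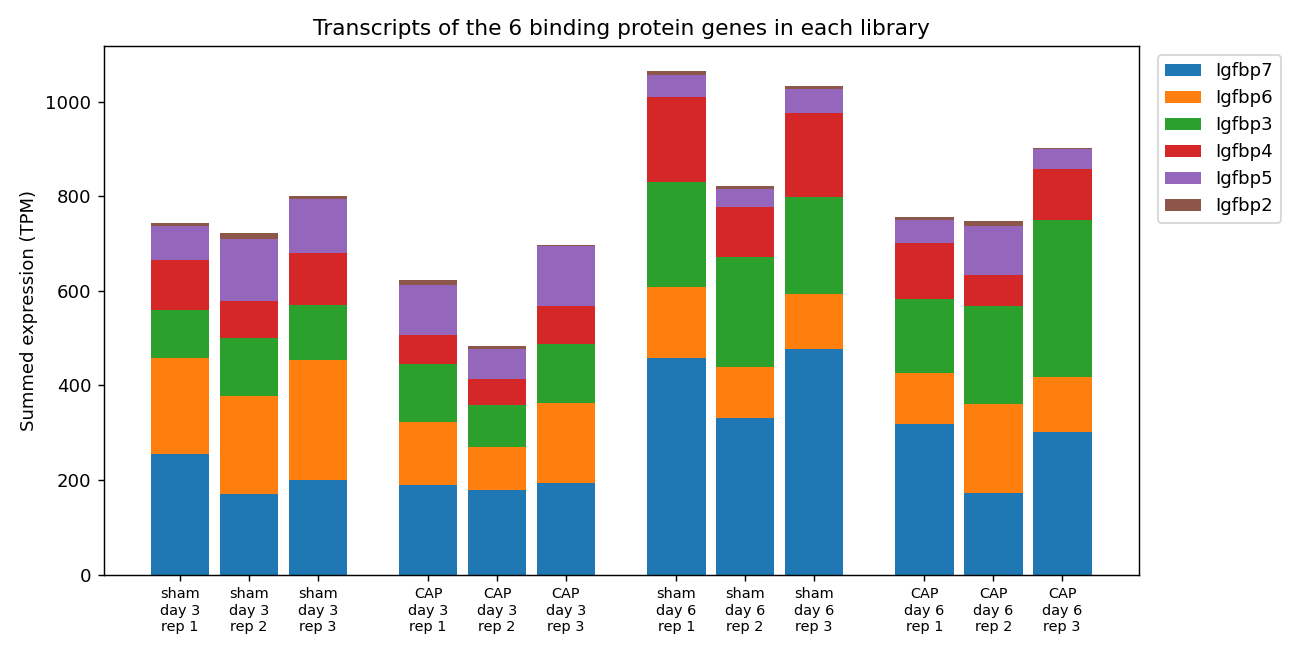
Summed TPM of the 6 IGF binding proteins in each of the 12 libraries, as stacked bars from 0 divided by gene. Igfbp7 forms the largest segment in every sham library of day 6, where the sums lie between 821 and 1065 TPM.

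Around the members, 37 other genes of the IGF pathway were examined, of which 32 were tested. Stc1, a stanniocalcin that inhibits the IGF binding protein protease Pappa, was the only one at an adjusted p under 0.05 in any of the 5 comparisons. Pappa itself was below the filter, with group means of 0.115 to 0.291 TPM, and was not tested. Stc1 rose in the sham wounds from 1.95 TPM at day 3 to 4.24 TPM at day 6 (log2 difference 1.10, standard error 0.20, limma adjusted p = 0.0421). In that comparison 6 of the 32 were higher and 4 lower at an unadjusted p under 0.05, against 16.0% of all genes. Igf2bp1, an RNA binding protein of Igf2 mRNA, passed the threshold of the study in the sham wounds, where it was lower at day 6 (0.603 against 1.89 TPM, adjusted p = 0.0953), and in the CAP-treated wounds (0.544 against 1.64 TPM, adjusted p = 0.386).

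In CAP-treated against sham wounds at day 3, none of the 32 pathway genes passed either threshold, and none had an unadjusted p under 0.05 from limma. At day 6 none passed at an adjusted p under 0.05, while 2 were higher and 8 lower at an unadjusted p under 0.05, against 19.2% of all genes. The 3 that passed the threshold of the study were all lower under CAP, against 3.80% of all genes. They were Stc2, a relative of Stc1 (4.74 against 9.15 TPM, adjusted p = 0.236), Adam12, a protease that cleaves IGF binding proteins (18.7 against 36.5 TPM, adjusted p = 0.230), and Igf2bp2 (10.3 against 20.8 TPM, adjusted p = 0.234). All 3 were lowest in CAP day 6 replicate 2, and without it none passed that threshold, with log2 differences of -0.58 for Stc2, -0.66 for Adam12 and -0.70 for Igf2bp2. The 32 genes then held 1 higher and 3 lower at an unadjusted p under 0.05, against 12.5% of all genes. Among the genes of the signal inside the cell, Eif4ebp1, a repressor of translation controlled by mTOR, had the smallest unadjusted p at day 6 (0.0074), at 44.0 against 63.7 TPM. H19, the imprinted neighbour of Igf2, had log2 differences of -0.39 at day 3 and -0.41 at day 6 under CAP (adjusted p = 0.834 and 0.423), smaller in size than those of Igf2.

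For each called member the 3 genes with the most similar pattern were taken, by the root mean square difference of log2 levels centred over the 12 libraries, among 16168 genes that averaged 1 TPM or more. For Igfbp3 they were Postn (0.231), a matrix protein of healing dermis, Nrep (0.259) and Cpq (0.268). For Igfbp6 they were Phldb1 (0.209), the receptor tyrosine kinase Axl (0.217) and the complement inhibitor Cd55 (0.228). For Igfbp7 they were Thsd7a (0.131), the pericyte marker Pdgfrb (0.144) and Pde3a (0.150). These likenesses describe 12 libraries that share groups, and no test was made of them.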

How the data were processed

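RNA was taken from 12 mouse wound libraries, made with a SureSelect XT HS2 mRNA kit. Per the labels and the methods of the study, reads were demultiplexed with bcl2fastq, trimmed with Trimmomatic 0.36 and placed on mm10. The authors deposited TPM values per gene from StringTie, with 0.0001 standing for 0. No source used here gives the aligner, the annotation release or the use of strand, so reads of overlapping antisense genes cannot be told apart. TPM sum to about the same total in every library and keep no depth, so depth is unknown and no counting interval is given.

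The members and lists were chosen with earlier results of these data known. Genes that averaged 0.3 TPM or more in each group compared (for the difference of effects, in at least 1 of 4) were tested on log2(TPM + 0.1) with limma 3.58.1 (R 4.3.3, trend), with the libraries of each comparison only, and p-values were adjusted by Benjamini-Hochberg over all genes tested. A fold on this scale understates changes of low genes. The test was checked on simulated data with independent noise for each gene. That check does not cover shifts shared by many genes of a library. Named genes were the 10 members, up to 3 genes per pathway list by p and any called, the 3 most similar genes per called member, and marker lists. Alternatives were other pseudocounts, filters, scalings, a joint fit, a replicate block and leaving out each library. Positions are from GENCODE M21, promoters from RefSeq (GRCm38.p6, 10 of 10 members matched).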

Additional observations from a re-analysis of the deposited data

How the results depend on the processing

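Limits were set by 3 libraries per group, an unknown depth and the mix of tissues in a wound. The members called over time in the sham wounds numbered 3 as reported, 1 with no filter, 0 in the joint fit of 12 libraries, 4 with a filter of 0.3 TPM in every library, and 0 to 3 with 1 library left out. Members past the threshold of the study, with 1 library left out, numbered 0 to 1 for CAP against sham at day 3 and at day 6, 1 to 3 over time in sham, 0 to 2 over time in CAP and 0 to 1 for the difference of effects. Over time in CAP this number was 1 after median-ratio scaling and 1 after quantile normalization. At day 6, 0 to 1 members had an adjusted p under 0.05. The cause was not tested.

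Of 50 differences of members, 30 kept their sign in every alternative. At day 3, the log2 difference of Igfbp3 was 0.023 after median-ratio scaling. At day 6, Igf1 was at 0.022 after median-ratio scaling and 0.0071 after quantile normalization, and Igfbp2 at 0.025 and 0.077. With 1 library left out, these ranges crossed 0. For CAP against sham at day 3 they were Igf1r -0.19 to 0.036, Igf2r -0.070 to 0.29, Igfbp2 -1.04 to 0.055, Igfbp3 -0.11 to 0.12, Igfbp5 -0.38 to 0.18 and Igfbp7 -0.26 to 0.024. At day 6 they were Igf1 -0.44 to 0.13, Igfbp2 -0.43 to 0.37, Igfbp3 -0.29 to 0.25 and Igfbp6 -0.15 to 0.26. Over time in sham they were Igf1r -0.0093 to 0.22, Igf2r -0.027 to 0.16 and Igfbp2 -0.51 to 0.024. Over time in CAP they were Igf2 -0.91 to 0.18, Igfbp2 -0.46 to 0.63 and Igfbp6 -0.18 to 0.29. For the difference of effects they were Igf2 -0.34 to 0.75, Igfbp2 -0.15 to 0.95, Igfbp3 -0.25 to 0.28 and Igfbp4 -0.35 to 0.15.

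Igfbp3 lost its call in the sham wounds without sham day 3 replicate 3 (adjusted p = 0.0690 from limma). Igfbp6 and Igfbp7 lost theirs with no filter (0.0964 and 0.115). Without 1 library, Igfbp6 lost it without sham day 3 replicates 1, 2 or 3 (0.05005, 0.0993 and 0.132) or sham day 6 replicates 2 or 3 (0.0900 and 0.138). Igfbp7 lost it without sham day 3 replicates 2 or 3 (0.123 and 0.156) or sham day 6 replicates 1 or 3 (0.126 and 0.155).

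Over all genes, adjusted calls over time in sham ranged from 0 to 495 against 420 under other settings and from 1 to 498 with 1 library left out. For CAP against sham they ranged from 0 to 48 at day 3 (3 as reported) and from 0 to 1430 at day 6 (0 as reported). Over time in CAP they were 0 to 10 (1 as reported), and for the difference of effects 0 to 8 (0 as reported). Genes past the threshold of the study ranged from 154 to 568 (290) at day 3, 311 to 1483 (697) at day 6, 405 to 1156 (688) over time in sham, 299 to 886 (507) over time in CAP and 580 to 1777 (994) for the difference.

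The replicate numbers were not taken as pairs, since they are not said to mark a shared mouse or litter. Of 18 same-number pairs, 7 correlated above 0.1 (-0.18 to 0.40), a larger share than among pairs with different numbers. In 25 of 36 comparisons a library was best with its own number, against 12 of 36 by chance, which is a hint from the data and not from the design. With the replicate block, 3 members were called over time in sham, where Igfbp6 was lost (adjusted p = 0.0611) and Igfbp4 was gained (0.0437, limma).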
